A study of Mus musculus with 8 samples.

Results

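The Hippo pathway core was described through 10 genes, all found in a table of 13607 genes measured in cultured mouse astrocytes. They were the co-activator genes Yap1 and Wwtr1 (the gene of TAZ), the transcription factor genes Tead1, Tead2 and Tead3, the kinase genes Lats1, Lats2 and Stk3 (the gene of MST2), the upstream scaffold gene Nf2 and the TEAD cofactor gene Vgll4. They were taken by symbol from a list that was chosen with earlier results of these data known. PolyA RNA was sequenced from 8 libraries in 4 groups of 2. Every group had the C57BL/6J background and floxed Yap and Taz alleles (Yapf/f;Tazf/f), which Cre recombinase can delete, and was grown in medium with EGF and bFGF. Control astrocytes were not transformed and were kept without doxycycline. The HER2CA day 15 astrocytes had received lentiviruses for a doxycycline-inducible HER2CA oncogene, for the rtTA activator it needs and for CreERT2, and were kept with doxycycline for 15 days. CreERT2 is a form of Cre that stays inactive until 4-hydroxytamoxifen (4OH-TAM) is added. A further group, labelled as YAP/TAZ knockout, had the same constructs and doxycycline, with 1 µM 4OH-TAM over the 15 days. Gliomaspheres were HER2CA spheres, labelled P1, grown in suspension with doxycycline and taken 3 weeks after the start. The labels list DMSO for the HER2CA day 15 group and for the gliomaspheres, while the treatment protocol calls cells without 4OH-TAM untreated, so vehicle exposure is unclear. The sources used here do not state whether the controls carried the lentiviral constructs, or which promoter drove CreERT2. Nothing says that replicates A and B were separate cultures, so the p-values cover only the spread between libraries, and this spread may be technical.

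In the Hippo pathway, the kinases MST1 and MST2 activate LATS1 and LATS2, which phosphorylate the co-activators YAP and TAZ. Phosphorylated YAP and TAZ are held in the cytoplasm by 14-3-3 proteins and degraded. When the kinases are quiet, YAP and TAZ enter the nucleus, where they cannot bind DNA themselves and act through TEAD factors. TEADs recognise the letters GGAATG, read as CATTCC on the other strand. NF2 (merlin) recruits LATS kinases to the membrane, and VGLL4 competes with YAP for TEADs. Much of this control acts on proteins and their location, which RNA counts do not measure.

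The TEAD letters GGAATG or CATTCC were searched in the RefSeq promoter windows of the members (GRCm38.p6, 250 bases before to 50 after each start, both strands), because these are the letters through which the pathway's own factors bind. A window was found for 8 of the 10 members, all except Tead1 and Stk3. The letters occurred in 5 of these 8 genes (62.5%), against 1492 of 10339 genes of the table with a window (14.4%). By window, as a gene can have several starts, it was 7 of 13 (53.8%) against 1616 of 13279 (12.2%). The Wwtr1 windows overlap and hold the same letters, so that match counts in each of them. The 8 members had 13 windows and the 10339 genes 13279, so the members had more windows per gene in which letters could occur. The windows of Tead2, Lats1 and Nf2 did not hold these letters. A match describes the letters and is not a measured binding site. The 250 bases before the starts of the co-activator genes are shown whole, since both genes hold the letters in the same orientation. They lie at chr9:8004597-8004846 for Yap1 and at chr3:57575911-57576160 for Wwtr1, both on the minus strand, with the TEAD letters in capitals, 141 bases before the Yap1 start (position 8004596) and 136 bases before this Wwtr1 start (57575910). A further Wwtr1 start, at 57575876, lies 170 bases from the same letters.
Yap1: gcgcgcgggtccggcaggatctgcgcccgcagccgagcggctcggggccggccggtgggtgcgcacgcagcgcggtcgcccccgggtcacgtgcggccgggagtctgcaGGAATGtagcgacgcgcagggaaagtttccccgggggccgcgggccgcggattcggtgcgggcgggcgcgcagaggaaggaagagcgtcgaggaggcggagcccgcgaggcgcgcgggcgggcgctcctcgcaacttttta
Wwtr1: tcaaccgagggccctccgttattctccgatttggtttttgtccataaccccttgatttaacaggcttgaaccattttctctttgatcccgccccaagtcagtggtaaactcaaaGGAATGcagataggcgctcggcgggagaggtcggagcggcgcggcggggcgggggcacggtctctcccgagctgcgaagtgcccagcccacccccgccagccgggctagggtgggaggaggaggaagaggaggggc

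For the other members the letters are shown with 9 bases on each side, again read along the gene's strand and with the letters in capitals. Tead3 held them at 4 places around 2 annotated starts. Of the 3 in the window of the start at 28350600, a pair at chr17:28350709-28350732 and chr17:28350700-28350723 overlap in the stretch shown, and the third, at chr17:28350584-28350607, begins 2 bases past the first transcribed base. The fourth, at chr17:28350973-28350996, lies in the window of a different start, at 28350805. The match of Vgll4 lies 82 bases before its start, at chr6:114969271-114969294. That of Lats2, a gene known as a YAP target as well as a YAP kinase, begins 4 bases past the first transcribed base of its start at 57746123, at chr14:57746105-57746128. All of these genes lie on the minus strand.
Tead3, 182 bases before the start at 28350805: gacgagcgaGGAATGgggtgcgcg
Tead3, 123 bases before the start at 28350600: ggccgggctCATTCCgtacattcc
Tead3, 114 bases before the start at 28350600: cattccgtaCATTCCggccatccc
Tead3, 2 bases past the start at 28350600: taagcccggGGAATGcaactcgga
Vgll4, 82 bases before the start: gtggggtggGGAATGctgagaaat
Lats2, 4 bases past the start: gacgcccgtGGAATGccaacaatg

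The libraries held 15517708 to 28231426 counts. The ribosomal RNA transcript Rn45s took 36.1% of gliomaspheres B and 0.984% to 2.92% of the other 7 libraries, so levels are CPM, read counts divided by TMM-scaled library sizes. Differences are log2 fold changes from edgeR's quasi-likelihood test, with p-values adjusted by Benjamini-Hochberg over all 13607 genes and called at 0.05. Where libraries of 2 groups are said not to overlap, this held for 79.3% to 91.5% of all genes, depending on the comparison. With no scaling factors, where this ribosomal share stays in the library size, 13 of the 47 member calls held, and with Rn45s and Lars2 taken out first 45 of 47 held. The astrocyte label was checked on 12 markers, all measured. Their summed level was 9060 to 10522 CPM in controls, 3562 to 3724 in HER2CA day 15, 15290 to 15682 in the 4OH-TAM libraries and 13900 to 15057 in gliomaspheres. The mean of S100b, an astrocyte calcium-binding protein gene, was 0.241 CPM in HER2CA day 15. Markers of other cells also moved between groups. The 9 measured of 10 oligodendrocyte lineage markers summed to 468 to 506 CPM in controls, 110 to 119 in HER2CA day 15, 908 to 952 in the 4OH-TAM libraries and 2995 to 3306 in gliomaspheres. Between the last 2 groups the list was split, with 3 markers higher in gliomaspheres, 3 lower and 3 not called. The 9 measured of 10 microglia and macrophage markers summed to 184 to 203, 194 to 206, 975 to 1012 and 100.5 to 102 CPM in the same order. In HER2CA day 15 against controls, 1 of these 9 was higher, 5 were lower and 3 were not called, so the similar sums do not follow most of this list. The 6 measured of 7 fibroblast and mural markers summed to 226 to 262, 263 to 266, 159 to 199 and 32.6 to 37.7 CPM. In the 4OH-TAM libraries 5 of these 6 were higher and 1 lower, both against controls and against HER2CA day 15. Their lower sum there thus does not follow most of the list. Against controls, HER2CA day 15 had 1 of these 6 higher, 3 lower and 2 not called, though its sum was not lower. The part of these shifts in the results below was not tested, and in bulk RNA fewer cells of a type and less RNA per cell cannot be told apart.

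Yap1 and Wwtr1, the floxed genes, were read first because the knockout label concerns them. Yap1 (chromosome 9, 7931999 to 8004596, minus strand, GRCm38) stood at 144 and 136 CPM in controls A and B. The HER2CA day 15 libraries held 101 and 103 CPM of it, and the 4OH-TAM libraries 107 and 103. Gliomaspheres held 131 and 136 CPM. The gene thus had an upper pair, controls and gliomaspheres, and a lower pair, the day 15 groups, with no overlap between the pairs. Within each pair the neighbours were not separated: the difference of the 4OH-TAM libraries from HER2CA day 15 was 0.04 in log2 (95% interval −0.10 to 0.19, adjusted p = 0.569, edgeR), and that of gliomaspheres from controls was −0.07 (−0.22 to 0.07, adjusted p = 0.358, edgeR). Yap1 was therefore not lower under the knockout label than in HER2CA day 15. With upper-quartile factors it was higher there, by 0.25 in log2 (adjusted p = 0.00352, edgeR). These factors moved the median of all genes to 0.22 in this comparison, so most of that value is shared by genes in general. Against controls it fell by 0.46 in HER2CA day 15 (SE 0.0679, adjusted p = 1.78e-05, edgeR) and by 0.42 in the 4OH-TAM libraries (SE 0.0678, adjusted p = 9.77e-05, edgeR). A Cre deletion can leave most exons of a gene in place, and the sources used here do not name the floxed exons, so counts over the whole gene do not measure the deletion. An exchange of labels between the day 15 groups was not tested. Groups are named by their labels for this reason, and every direction between the day 15 groups rests on them.

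Wwtr1 (chromosome 3, 57455649 to 57575910, minus strand) had another order. It stood at 177 and 168 CPM in controls, at 194 and 210.3 CPM in HER2CA day 15, at 123 and 122 CPM in the 4OH-TAM libraries and at 180.2 and 175 CPM in gliomaspheres. The 4OH-TAM libraries were the lowest without overlap. They were lower than HER2CA day 15 by a log2 fold change of −0.73 (SE 0.0687, adjusted p = 1.25e-07, edgeR) and than controls by −0.50 (SE 0.0687, adjusted p = 2.22e-05, edgeR). Transcripts of TAZ thus remained in the libraries labelled as knockout. The rise in HER2CA day 15 over controls was small, 0.23 (SE 0.0681, adjusted p = 0.00631, edgeR), and lost its call without HER2CA day 15 B (adjusted p = 0.0788, edgeR), without control B (0.0523) and with upper-quartile factors (0.331). Gliomaspheres did not differ from controls past the threshold (0.04, 95% interval −0.10 to 0.19).

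The balance of the co-activators was compared within each library, where no scaling between libraries enters. Per kilobase of annotated exon, the level of Wwtr1 was above that of Yap1 in every library. The ratio of Yap1 to Wwtr1 was 0.422 and 0.418 in controls, 0.267 and 0.254 in HER2CA day 15, 0.451 and 0.436 in the 4OH-TAM libraries and 0.374 and 0.402 in gliomaspheres. With the longest transcript as gene length, the group means were 0.723, 0.448, 0.764 and 0.669 in the same order, so the size of the ratio depends on the length used. HER2CA day 15 stood apart as the lowest group with either length. By exon length it had a mean 0.62 times that of controls, and the 4OH-TAM mean was 1.70 times that of HER2CA day 15. With 2 libraries against 2, an exact two-sided permutation test cannot go below 0.333, which is the value it gave for each of the 6 pairs of groups. Over the 8 libraries, among 9601 genes of at least 10 CPM on average, those whose log2 CPM ran most like Yap1 were Rnf145, Mllt11, Gpc1, Psma5 and Atf7ip (Pearson r 0.983 to 0.986). For Wwtr1 they were Lsm11, Rrp1b, Elovl4, Polr2d and Acaca (r = 0.998 for Lsm11, the highest). These are descriptions of 4 groups of 2 libraries, in which replicates share their group.

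**Figure D1:**
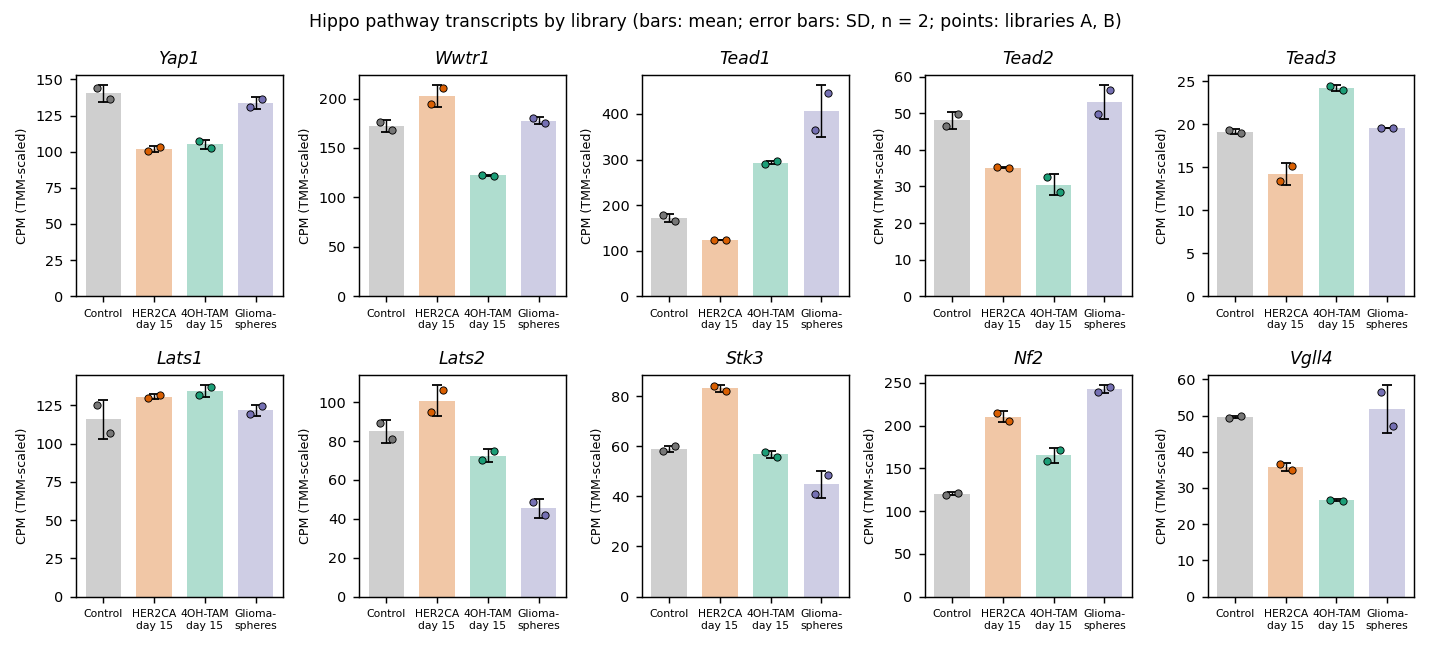
CPM of each of the 10 members in every library, with points for replicates A and B and a bar for the mean of each group of 2. Yap1 is lowest in both day 15 groups, Wwtr1 is lowest in the 4OH-TAM libraries, Tead1 ranges from 124 CPM in HER2CA day 15 to 447 CPM in gliomaspheres B, and Lats1 is nearly level.

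Among the 3 TEAD members, Tead1 moved most. This factor gene (chromosome 7, 112679318 to 112906807, plus strand) stood at 178 and 165 CPM in controls and at 124 CPM in both HER2CA day 15 libraries. It was at 290.4 and 296 CPM in the 4OH-TAM libraries and at 366 and 447 CPM in gliomaspheres. All 4 groups were separated, without overlap, which in any single comparison was so for 79.3% to 91.5% of all genes. Against HER2CA day 15, Tead1 was higher by 1.24 in log2 in the 4OH-TAM libraries (SE 0.0885, adjusted p = 5.16e-09, edgeR) and by 1.71 in gliomaspheres (SE 0.0897, adjusted p = 1.21e-10, edgeR). Against controls it was lower in HER2CA day 15 (−0.47, SE 0.0881, adjusted p = 0.000186, edgeR) and higher in gliomaspheres (1.24, SE 0.0883, adjusted p = 1.22e-08, edgeR). Its highest and lowest group means differed 3.28-fold, a wider range than that of 71.8% of all genes.

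Tead2 (chromosome 7, 45215753 to 45233644, plus strand), a TEAD known from the early embryo and neural precursors, followed a different order. It stood at 46.5 and 49.8 CPM in controls, 35.2 CPM in both HER2CA day 15 libraries, 32.6 and 28.5 in the 4OH-TAM libraries and 49.7 and 56.4 CPM in gliomaspheres. Both day 15 groups were below controls and gliomaspheres without overlap. The fall from controls was −0.45 in HER2CA day 15 (SE 0.0894, adjusted p = 0.000295, edgeR) and −0.66 in the 4OH-TAM libraries (SE 0.09, adjusted p = 2.01e-05, edgeR). Between the day 15 groups the difference was −0.20 (95% interval −0.40 to −0.01, adjusted p = 0.0514, edgeR), which passed the threshold without 4OH-TAM A (adjusted p = 0.0272) or gliomaspheres A (0.0283), and was 0.00 with upper-quartile factors. Tead3 (chromosome 17, 28331671 to 28350817, minus strand) was the lowest of the TEAD members per kilobase of exon, with group means of 2.12 to 3.61 CPM per kilobase. Its level stood at 19.3 and 18.9 CPM in controls, 13.3 and 15.1 CPM in HER2CA day 15, 24.4 and 24.0 in the 4OH-TAM libraries and 19.6 and 19.5 CPM in gliomaspheres. HER2CA day 15 was the lowest group and the 4OH-TAM libraries the highest, 0.76 apart in log2 (SE 0.0972, adjusted p = 3.37e-06, edgeR). Gliomaspheres were lower than the 4OH-TAM libraries by −0.31, a call lost without 4OH-TAM A (adjusted p = 0.0794), 4OH-TAM B (0.0567) or gliomaspheres A (0.0612).

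Set against each other within a library, per kilobase of exon, the TEAD members changed in proportion. Tead1 made up 51.0% and 47.9% of their sum in controls and 49.4% and 48.8% in HER2CA day 15. It rose to 67.2% and 69.6% in the 4OH-TAM libraries, with 67.0% and 69.2% in gliomaspheres. Control and HER2CA day 15 libraries thus had about equal makeups of Tead1, Tead2 and Tead3. None of their libraries reached the Tead1 shares of the other groups. Tead2 made up 39.4% ± 2.27 (SD, n = 2) in controls, 39.5% ± 0.416 in HER2CA day 15, 20.2% ± 1.68 in the 4OH-TAM libraries and 25.3% ± 0.761 in gliomaspheres. Tead3 held 11.1% to 11.4% on average in the groups other than gliomaspheres and 6.68% ± 0.799 in gliomaspheres. The exact two-sided permutation p was 0.333, the smallest possible, wherever libraries did not overlap. Tead4, the remaining TEAD gene, is not part of these shares and ran in the reverse order of Tead1. From controls to HER2CA day 15 it was higher, while Tead1, Tead2 and Tead3 were lower. It stood at 8.79 and 9.27 CPM in controls, 11.1 and 14.5 in HER2CA day 15, 3.91 and 3.25 in the 4OH-TAM libraries and 1.05 and 0.911 in gliomaspheres. Its log2 fold change was −1.84 in the 4OH-TAM libraries against HER2CA day 15 (SE 0.162, adjusted p = 5.74e-08, edgeR) and −3.16 in gliomaspheres against controls (SE 0.235, adjusted p = 2.01e-08, edgeR).

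**Figure D2:**
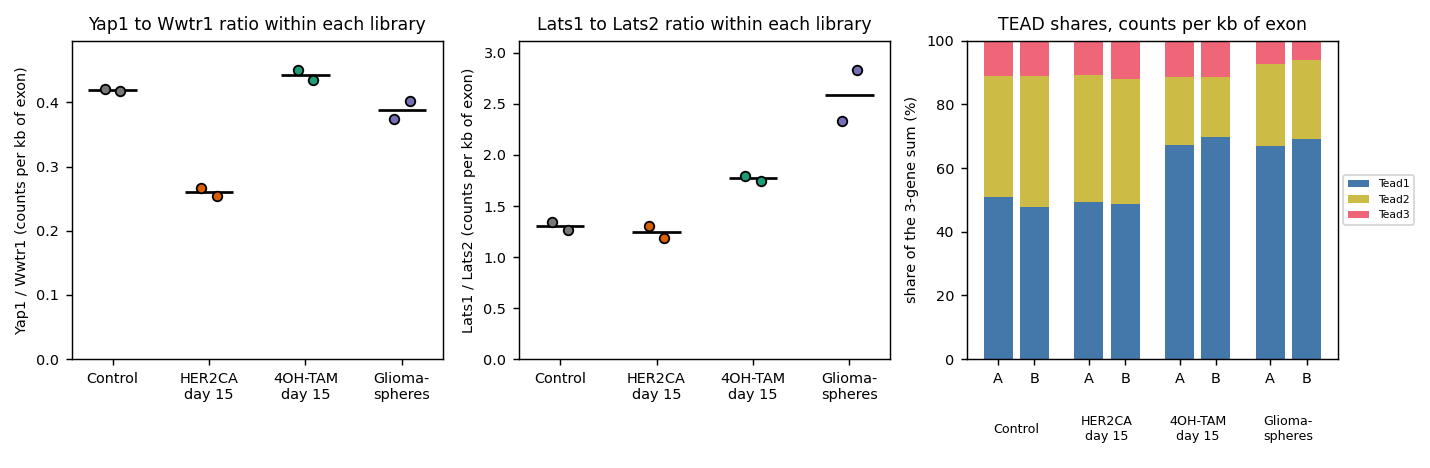
Quantities within each library from counts per kilobase of exon: the Yap1 to Wwtr1 ratio and the Lats1 to Lats2 ratio (points are libraries, bars are group means), and the shares of Tead1, Tead2 and Tead3 in their sum (%, one stacked bar per library). HER2CA day 15 has the lowest Yap1 to Wwtr1 ratio and gliomaspheres the highest Lats1 to Lats2 ratio. Tead1 takes about 68% of this sum, which leaves out Tead4, in the 4OH-TAM libraries and gliomaspheres against about 49% in the others.

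Of the kinases that phosphorylate YAP and TAZ, Lats1 (chromosome 10, 7681214 to 7716460, plus strand) was the steadiest member. It stood at 125 and 107 CPM in controls, 130 and 132 CPM in HER2CA day 15, 132 and 137 in the 4OH-TAM libraries and 119 and 124 CPM in gliomaspheres. No neighbours in the order of its levels were separated, and its group means spanned 1.16-fold, a smaller span than in all but 1.72% of genes. Its only call was a rise of 0.21 in the 4OH-TAM libraries over controls (SE 0.0776, adjusted p = 0.0275, edgeR), which was lost without 4OH-TAM A (adjusted p = 0.0623), 4OH-TAM B (0.15) or control B (0.302). Lats1 was also called with upper-quartile factors between the day 15 groups (0.25, adjusted p = 0.00853, edgeR) and between gliomaspheres and the 4OH-TAM libraries (−0.24, adjusted p = 0.0168, edgeR). These factors moved the medians of all genes there to 0.22 and −0.07. In HER2CA day 15 against controls, leaving out control A gave 0.28 for Lats1.

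Lats2 (chromosome 14, 57689662 to 57758388, minus strand) moved much more than Lats1. It stood at 89.2 and 80.9 CPM in controls, 95.1 and 106 CPM in HER2CA day 15, 70.05 and 75.01 in the 4OH-TAM libraries and 48.9 and 41.9 CPM in gliomaspheres. HER2CA day 15 was the highest group and gliomaspheres the lowest, both without overlap. Gliomaspheres were lower than controls by a log2 fold change of −0.89 (SE 0.093, adjusted p = 8.24e-07, edgeR) and than HER2CA day 15 by −1.14 (SE 0.0927, adjusted p = 2.07e-08, edgeR). The 4OH-TAM libraries were lower than HER2CA day 15 by −0.47 (SE 0.0873, adjusted p = 0.00014, edgeR). The steps on either side of the controls were less firm. The rise to HER2CA day 15 (0.24, adjusted p = 0.0188, edgeR) was lost without HER2CA day 15 B (0.195) or control B (0.16). The fall to the 4OH-TAM libraries (−0.23, adjusted p = 0.0345, edgeR) was lost without control A (0.222), 4OH-TAM A (0.204) or 4OH-TAM B (0.0597), and with DESeq2 (0.0618). Lats2 shares 2955 exon bases with the gene model Gm49361 on the same strand, so its counts depend on how shared reads were assigned. The ratio of Lats1 to Lats2 per kilobase of exon was 1.34 and 1.26 in controls, 1.30 and 1.18 in HER2CA day 15, 1.798 and 1.75 in the 4OH-TAM libraries and 2.33 and 2.84 in gliomaspheres.

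Stk3, the gene of the upstream kinase MST2 (chromosome 15, 34875496 to 35178921, minus strand), peaked in HER2CA day 15. It stood at 58.1 and 59.9 CPM in controls, 83.9 and 82.2 CPM in HER2CA day 15, 57.8 and 55.8 in the 4OH-TAM libraries and 41.0 and 48.6 CPM in gliomaspheres. The rise over controls was 0.49 in log2 (SE 0.0805, adjusted p = 4.98e-05, edgeR), and the 4OH-TAM libraries were lower than HER2CA day 15 by −0.55 (SE 0.0805, adjusted p = 1.56e-05, edgeR). The 4OH-TAM libraries and controls were not separated (−0.05, 95% interval −0.23 to 0.12, adjusted p = 0.584, edgeR). Gliomaspheres were lower than controls (−0.41, SE 0.0857, adjusted p = 0.000628, edgeR) and HER2CA day 15 (−0.91, SE 0.0849, adjusted p = 1.03e-07, edgeR).

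Nf2, the gene of merlin, which brings LATS kinases to the membrane (chromosome 11, 4765845 to 4849536, minus strand), was lowest in controls. It stood at 119 and 122 CPM there, at 215 and 206 CPM in HER2CA day 15, at 159 and 171 CPM in the 4OH-TAM libraries and at 239 and 246 CPM in gliomaspheres. Every library of the HER2CA groups was above both controls. The log2 fold change from controls was 0.81 in HER2CA day 15 (SE 0.0688, adjusted p = 4.59e-08, edgeR), 0.46 in the 4OH-TAM libraries (SE 0.0688, adjusted p = 4.92e-05, edgeR) and 1.01 in gliomaspheres (SE 0.0695, adjusted p = 8.23e-09, edgeR). The 4OH-TAM libraries were below HER2CA day 15 by −0.35 (SE 0.0681, adjusted p = 0.000232, edgeR), a call lost with upper-quartile factors (−0.14, adjusted p = 0.0703). The lead of gliomaspheres over HER2CA day 15 (0.20, adjusted p = 0.0129, edgeR) was lost without HER2CA day 15 B (0.0915) and had the opposite sign with no scaling factors (−0.08).

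Vgll4, whose product displaces YAP from TEADs (chromosome 6, 114860628 to 114969994, minus strand), was lowest in the 4OH-TAM libraries. It stood at 49.4 and 49.8 CPM in controls, 36.7 and 34.98 CPM in HER2CA day 15, 26.7 and 26.4 in the 4OH-TAM libraries and 56.4 and 47.1 CPM in gliomaspheres. Controls and gliomaspheres overlapped, and both day 15 groups lay below them. The log2 fold change from controls was −0.47 in HER2CA day 15 (SE 0.0876, adjusted p = 0.000169, edgeR) and −0.90 in the 4OH-TAM libraries (SE 0.0893, adjusted p = 7.88e-07, edgeR). The 4OH-TAM libraries were below HER2CA day 15 by −0.43 (SE 0.0906, adjusted p = 0.000459, edgeR). Over the 8 libraries the log2 CPM of Vgll4 correlated with that of Tead2 at Pearson r = 0.924, and Tead1 correlated with Lats2 at r = −0.928. These values describe 4 groups rather than 8 independent states.

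The members were then counted in each comparison, beside all genes. In the 4OH-TAM libraries against HER2CA day 15, the comparison the series describes as removing YAP and TAZ during transformation, 7 of 10 members were called, against 80.5% of all genes (40.8% higher and 39.7% lower). Tead1 and Tead3 were higher, and Wwtr1, Lats2, Stk3, Nf2 and Vgll4 were lower. With upper-quartile factors, which move the median of all genes to 0.22, the split was 4 higher and 4 lower, and with no scaling factors it was 2 and 0. Without scaling factors the lower members kept their negative signs, from −0.61 for Wwtr1 to −0.23 for Nf2, and lost only their calls. The median log2 fold change of the members was −0.28, against 0.01 over all genes, and 1 member, Tead1, passed 2-fold against 33.3% of all genes. Astrocyte, oligodendrocyte lineage and microglia marker sums were each higher in every 4OH-TAM library than in either HER2CA day 15 library. So were the sums of the 3 measured neuron, 2 endothelial and 3 ependymal markers. The fibroblast and mural sum was lower, though 5 of its 6 measured markers were higher.

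In HER2CA day 15 against controls, 9 of 10 members were called, against 75.8% of all genes (37.3% higher and 38.4% lower). Wwtr1, Lats2, Stk3 and Nf2 were higher, and Yap1, Vgll4 and all 3 TEAD members were lower. With upper-quartile factors 2 were higher and 5 lower, with Wwtr1 and Lats2 no longer called, and with no scaling factors 1 was higher and 0 lower. The members that lost their calls without scaling factors kept their signs. The members' median was −0.12 and that of all genes −0.02. In the 4OH-TAM libraries against controls, 9 of 10 were called, against 59.2% of all genes (31% higher and 28.2% lower), with Tead1, Tead3, Lats1 and Nf2 higher and Yap1, Wwtr1, Tead2, Lats2 and Vgll4 lower. No member passed 2-fold in either comparison, against 30.2% and 15.2% of all genes. The 3 comparisons without gliomaspheres share libraries, so their counts are not independent.

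In gliomaspheres against controls, 4 of 10 members were called, against 64.5% of all genes (32.5% higher and 32% lower). Tead1 and Nf2 were higher, both past 2-fold, and Lats2 and Stk3 were lower. With no scaling factors 1 was higher and 2 lower. The remaining 6 members, both co-activators among them, had absolute log2 fold changes of at most 0.13. The median absolute log2 fold change was 0.10 for the members and 0.42 for all genes. Against HER2CA day 15, 9 members were called (78.8% of all genes, 38.4% higher and 40.4% lower), 6 higher and 3 lower (1 and 2 with no scaling factors). Lats2, Stk3 and Wwtr1 were the lower ones, and the Wwtr1 call (−0.19, adjusted p = 0.021, edgeR) was lost without HER2CA day 15 B (0.176) or gliomaspheres B (0.152). Against the 4OH-TAM libraries, 9 were called (61% of all genes, 31.3% higher and 29.7% lower), 6 higher and 3 lower (0 and 2 with no scaling factors), with Tead3, Lats2 and Stk3 lower. Over the 4 groups, 8 members had a smaller range of group means than the median gene (2.09-fold), and Tead1 and Lats2 a wider one.

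**Figure D3:**
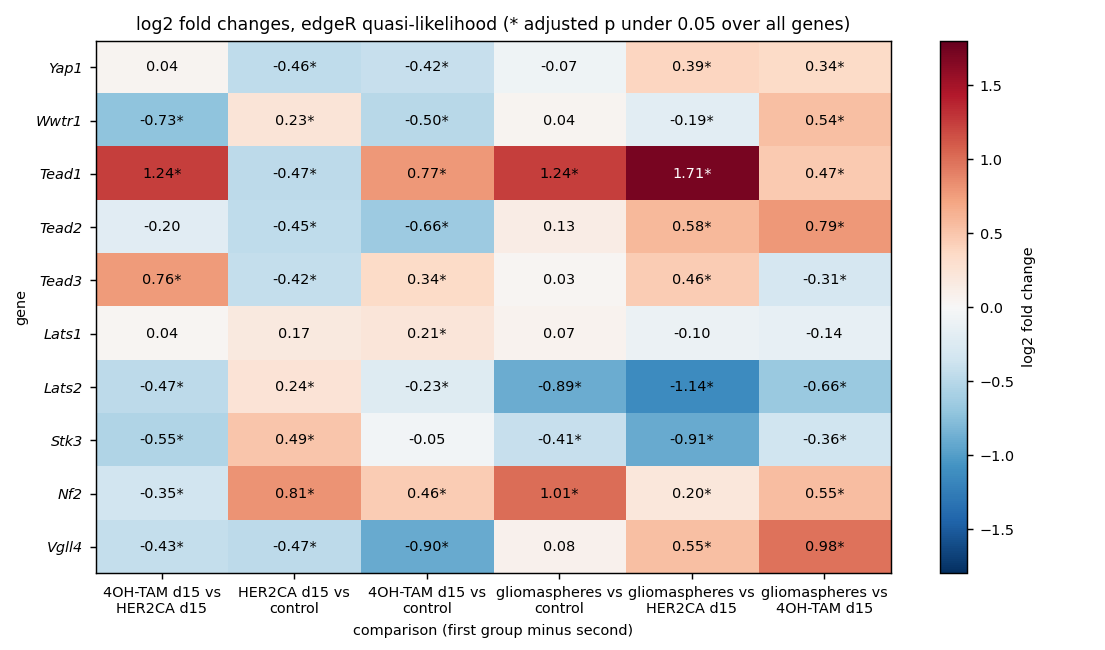
Log2 fold change of each member (rows) in each of the 6 comparisons (columns), first group over second, with the value in each cell and calls at an adjusted p of 0.05 marked. Red is higher and blue is lower in the first group; Tead1 runs from −0.47 in HER2CA day 15 against controls to 1.71 in gliomaspheres against HER2CA day 15, and Lats1 stays within 0.21 of 0.

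The other genes of the pathway were taken from 6 lists by role. Beside their counts, 40.8% of all genes were higher and 39.7% lower in the 4OH-TAM libraries against HER2CA day 15, 37.3% and 38.4% in HER2CA day 15 against controls, and 32.5% and 32% in gliomaspheres against controls. Of 16 measured further kinases and kinase cofactors, 8 were higher and 4 lower in the 4OH-TAM libraries against HER2CA day 15 (4 and 0 with no scaling factors). In HER2CA day 15 against controls 7 were higher and 5 lower (3 and 6 with upper-quartile factors, 2 and 3 with none). Their median log2 fold changes were 0.09 and 0.13. Mob1a, which encodes a LATS cofactor, rose from 42.7 and 41.7 CPM in controls to 107 and 101 in HER2CA day 15 and was at 60.1 and 63.7 in the 4OH-TAM libraries. Stk38, a kinase gene of the LATS family, rose from 30.3 and 24.9 CPM in controls to 77.5 and 76.8 in HER2CA day 15. Tnik, a kinase gene of the MAP4K group, fell instead from 72.7 and 66.7 CPM to 29.8 and 33.6, and was at 98.6 and 104 in the 4OH-TAM libraries and 148 and 166 in gliomaspheres.

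Upstream scaffold, junction and polarity genes, 31 measured, split into 17 higher and 8 lower in the 4OH-TAM libraries against HER2CA day 15 (18 and 5 with upper-quartile factors, 13 and 3 with none) and 8 higher and 16 lower in HER2CA day 15 against controls. The atypical cadherin gene Fat4 stood at 12.5 and 10.3 CPM in controls, 146 and 131 in HER2CA day 15, 22.3 and 23.2 in the 4OH-TAM libraries and 35.6 and 45.4 in gliomaspheres. The polarity gene Crb2 had the opposite order around HER2CA day 15, with means of 77.7, 15.0, 83.4 and 7.09 CPM. Rassf4, of the RASSF scaffold family, had means of 22.3, 3.42, 44.4 and 7.51 CPM. HER2CA day 15 was thus the extreme group for Fat4 and Rassf4, and gliomaspheres for Crb2. In gliomaspheres against controls, 15 genes of this list were higher and 13 lower (4 and 10 with no scaling factors).

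Negative regulators of the kinases, which include the Ajuba family and the STRIPAK phosphatase complex, numbered 25 measured. In the 4OH-TAM libraries 3 (12%) were higher and 18 (72%) lower than in HER2CA day 15 (6 and 11 with upper-quartile factors), with a median of −0.35. All genes had 40.8% higher and 39.7% lower. In HER2CA day 15 against controls 13 (52%) were higher and 4 (16%) lower (12 and 8 with upper-quartile factors), with a median of 0.30. Strip2, a STRIPAK component, stood at 1.04 and 1.03 CPM in controls and 10.2 and 11.5 in HER2CA day 15, and Ajuba fell from 55.6 and 51.5 CPM in controls to 13.8 and 15.7 in gliomaspheres. Genes for YAP and TAZ turnover and cytoplasmic retention, 18 measured, gave 4 higher and 10 lower in the 4OH-TAM libraries against HER2CA day 15 (6 and 9 with upper-quartile factors). They gave 12 higher and 5 lower in HER2CA day 15 against controls, where the deubiquitinase gene Otub2 rose from 15.5 and 15.2 to 54.7 and 58.9 CPM.

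Of 17 measured nuclear partners, 2 (11.8%) were higher and 11 (64.7%) lower in gliomaspheres than in controls (0 and 10 with no scaling factors), with a median of −0.52. Vgll3, a TEAD cofactor gene, had means of 4.55 CPM in controls, 12.3 in HER2CA day 15, 7.83 in the 4OH-TAM libraries and 1.01 in gliomaspheres. Of 25 measured YAP/TAZ target transcripts, 14 (56%) were higher and 5 (20%) lower under the knockout label than in HER2CA day 15, with a median of 0.52 against 0.01 for all genes. In HER2CA day 15 against controls 7 were higher and 15 lower (3 and 11 with no scaling factors). The customary readout Ctgf stood at 17.2 and 14.1 CPM in controls, 1.05 and 1.24 in HER2CA day 15, 26.7 and 25.2 in the 4OH-TAM libraries and 8.42 and 10.2 in gliomaspheres. Cyr61 stood at 284 and 260.0, 34.9 and 54.5, 118 and 105, and 19.5 and 22.9 CPM in the same order. Both readouts were higher under the knockout label than in HER2CA day 15, with log2 fold changes of 4.48 for Ctgf (SE 0.174, adjusted p = 7.62e-12, edgeR) and 1.31 for Cyr61 (SE 0.143, adjusted p = 6.32e-07, edgeR). These directions rest on the day 15 labels, which whole-gene counts of Yap1 and Wwtr1 do not check. Ankrd1, another customary readout, was not among the genes of the table.

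**Figure D4:**
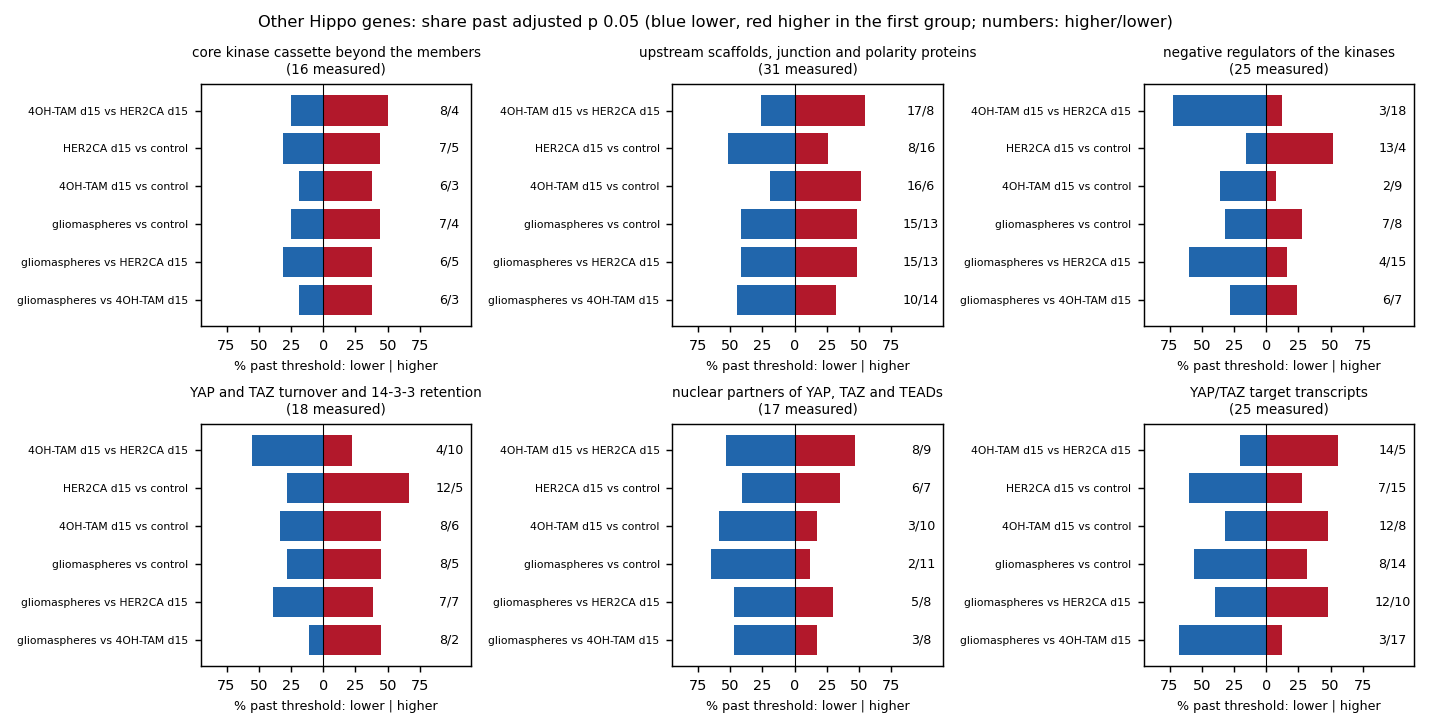
For each of 6 lists of Hippo genes, the share of measured genes (%) past an adjusted p of 0.05 that were lower (blue, left) and higher (red, right) in the first group of each comparison, with the counts printed as higher/lower. The lists share some genes, and the target list also holds the member Lats2. Negative regulators have 3 higher and 18 lower in the 4OH-TAM libraries against HER2CA day 15 (6 and 11 with upper-quartile factors), and YAP/TAZ targets 14 and 5.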

How the data were processed

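PolyA RNA was sequenced from stranded mRNA libraries, per the labels' protocols. The authors deposited whole-number read counts per gene symbol, not normalised, as the values show. The submitters' processing notes name FastQC, STAR 2.5.3a, featureCounts, mm10 and GRCm38 but give them no order. The sources used here state neither annotation nor strand setting, and without these Yap1 and Tead2, which share exon bases with genes on the opposite strand (116 and 13), may include their reads. Each gene reached 1.01 CPM or more in at least 2 libraries. Members and lists were chosen with earlier results of these data known. No pair of replicates agreed within sampling noise (chi-square per degree of freedom 4.05 to 723, and 4.01 to 21.5 without Rn45s and Lars2). The highest value of each range was that of gliomaspheres.

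The fit used edgeR 4.0.16 under R 4.3.3: TMM factors, filterByExpr, 1 mean per group over all 8 libraries (4 residual degrees of freedom), glmQLFTest and Benjamini-Hochberg adjustment over 13607 genes. A standard error is |log2 fold change| over the square root of F. Named genes were the members, Ctgf, Cyr61 and, per list and comparison, up to 2 called genes in each direction with the largest change and at least 5 CPM; not all are named. Positions and exon lengths come from GENCODE M21 (GRCm38), promoters from RefSeq. The model was also run on counts simulated from its own estimates of the spread. Far fewer genes were changed there than were called here, so that run does not check these calls. Alternatives were other scaling factors, filters, DESeq2 1.42.0, a 1.5-fold test, fits of 2 groups, a replicate block and each library left out. Taking out Rn45s and Lars2 with no scaling factors was chosen after seeing the data.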

Additional observations from a re-analysis of the deposited data

How the results depend on the processing

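Of 60 member differences, 47 passed the threshold. All 47 held with relative log expression factors, with Rn45s and Lars2 removed and with the replicate letter as a block. The filter of the main fit removed no gene, so the run with no filter repeated that fit and is no check. Of the 47, 46 held with DESeq2 and with fits of 2 groups, and 45 with a filter of 5 CPM. Upper-quartile factors kept 42, the test against a 1.5-fold change 14 and no scaling factors 13. No called difference was called in the opposite direction. The letters A and B did not pair libraries (correlations of A minus B between groups −0.031 to 0.055), and with the block the members called remained 7, 9, 9, 4, 9 and 9 (comparisons in the order of 4OH-TAM against HER2CA day 15, HER2CA day 15 and 4OH-TAM against control, and gliomaspheres against control, HER2CA day 15 and 4OH-TAM). With a library left out, the counts in that order were 7 to 8, 7 to 10, 7 to 9, 4 to 4, 7 to 9 and 8 to 9; a group left with 1 library was assumed to vary like the others.

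With no scaling factors the members called were 2, 1, 2, 3, 3 and 2, and the genes called 6375, 5890, 2654 and 4646 in the first 4 and 4199 in the last; the median of all genes moved to −0.33, −0.30 and −0.38 in the gliomasphere comparisons. The cause of the lost calls was not tested beyond the removal of Rn45s and Lars2, after which 45 of 47 held. Against 1.5-fold, members numbered 3, 1, 2, 3, 3 and 2, and genes 6071, 5456, 2417, 3393, 6237 and 3025; this test asks for a larger change.

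Signs turned as follows, 14 of them in differences that were not called. With no scaling factors, gliomaspheres against control gave −0.28 for Wwtr1, −0.21 for Tead2, −0.29 for Tead3, −0.26 for Lats1 and −0.23 for Vgll4. Stk3 gave 0.014 in the 4OH-TAM libraries against control, and the called Nf2 and Yap1 gave −0.077 against HER2CA day 15 and −0.058 against 4OH-TAM in gliomaspheres. With Rn45s and Lars2 removed as well, Stk3 gave 0.000916, Wwtr1 −0.0065 and Tead3 −0.014. Upper-quartile factors gave 0.0024 for Tead2 between the day 15 groups, −0.0082 for Tead3 in gliomaspheres against control and 0.011 for Lats1 against HER2CA day 15. In gliomaspheres against control, leaving out libraries gave −0.074 (without gliomaspheres A) to 0.183 (without gliomaspheres B) for Vgll4, and −0.039 (without control B) to 0.185 (without control A) for Lats1.

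With the longest transcript as gene length, the ratio of Yap1 to Wwtr1 was 0.723 for controls, 0.448 for HER2CA day 15, 0.764 for 4OH-TAM and 0.669 for gliomaspheres. The Tead1 share was 46.6%, 46.2%, 64.8% and 65.6%, the Tead3 share 15.0%, 15.3%, 15.5% and 9.21%, and the Tead2 share in HER2CA day 15 was 38.5%; the order of HER2CA day 15 and 4OH-TAM was kept.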
